A study of Mus musculus with 20 samples.

Results

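The genes described here make and inactivate lipid mediators from arachidonic acid: cyclooxygenases (Ptgs1, Ptgs2), prostaglandin E synthase (Ptges), the prostaglandin-inactivating dehydrogenase Hpgd, the lipoxygenases Alox5, Alox12, Alox12b, Aloxe3 and Alox15, and Alox5ap, the activating protein of Alox5. Of these 10 genes, chosen by name, 9 had at least 1 Affymetrix probeset annotated to that gene alone, 14 probesets in all, out of 18194 genes with such a probeset on the array. Ptgs1 had no such probeset in the annotation used and was not analysed here. The probeset that was brightest on average over the 20 arrays stands for its gene, and 4 genes had further probesets that served as a check.

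Normal skin (5 samples, wild type mice aged 2 months) was compared with spontaneous skin tumors of 2 genotypes, all in mice of the FVB strain. Trp53ΔEC tumors (7 samples, k14Cre;p53loxP/loxP mice) lack p53, and RbΔEC; Trp53ΔEC tumors (8 samples, k14Cre;p53loxP/loxP;pRbloxP/loxP mice) lack both p53 and pRb, in the cells of stratified epithelia where the keratin K14 promoter drives Cre, so that other cells of a tumor keep both genes. By histology 6 tumors were poorly differentiated (2 Trp53ΔEC and 4 RbΔEC; Trp53ΔEC), 4 were mixed (3 and 1), 3 undifferentiated (1 and 2) and 2 spindle cell carcinomas (1 and 1), and the last 2 classes were joined as undifferentiated/spindle. Tumor ages are not in the labels, so effects of age and of tumor growth cannot be told apart. Nor do the labels tie tumors to mice, and the p-values therefore cover only the spread among the arrayed samples, which may be technical in part.

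Phospholipases A2 release arachidonic acid from membranes, and cyclooxygenases turn it into the prostaglandin H2 from which Ptges makes prostaglandin E2, an inducer of growth and inflammation in skin that Hpgd oxidises to an inactive form. Ptgs2 is the inducible cyclooxygenase, induced by wounding, tumor promoters and growth factors in keratinocytes. Lipoxygenases add oxygen to the same kind of fatty acid: Alox5 with Alox5ap starts leukotriene synthesis in myeloid cells, Alox12 is the platelet-type enzyme, Alox15 is found in macrophages and eosinophils, and Alox12b and Aloxe3 work one after the other on epidermal ceramides to build the water barrier of the outer epidermis.

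The stretches before the starts of 4 of these genes are shown, since Ptgs2 and Ptges were the members that rose in tumors and Hpgd and Alox12b those with the largest differences by grade. They are the 250 bases upstream of the RefSeq start, read 5′ to 3′ on the gene's strand in build GRCm38.p6: chr1:150099781-150100030 (plus strand) for Ptgs2, chr2:30903298-30903547 (minus strand) for Ptges, chr8:56294302-56294551 (plus strand) for Hpgd and chr11:69156822-69157071 (plus strand) for Alox12b. Capitals mark matches to 6 motifs searched on both strands. None of the matches overlapped.
Ptgs2: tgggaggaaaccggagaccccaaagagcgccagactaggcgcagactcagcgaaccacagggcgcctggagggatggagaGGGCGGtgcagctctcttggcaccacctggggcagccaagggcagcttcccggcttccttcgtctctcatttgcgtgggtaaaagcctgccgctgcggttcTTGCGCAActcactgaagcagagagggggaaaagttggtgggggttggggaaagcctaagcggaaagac
Ptges: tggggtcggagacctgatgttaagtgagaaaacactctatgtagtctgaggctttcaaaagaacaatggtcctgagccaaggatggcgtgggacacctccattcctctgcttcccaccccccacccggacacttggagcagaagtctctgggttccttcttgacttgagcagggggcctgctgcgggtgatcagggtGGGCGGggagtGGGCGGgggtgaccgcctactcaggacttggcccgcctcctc
Hpgd: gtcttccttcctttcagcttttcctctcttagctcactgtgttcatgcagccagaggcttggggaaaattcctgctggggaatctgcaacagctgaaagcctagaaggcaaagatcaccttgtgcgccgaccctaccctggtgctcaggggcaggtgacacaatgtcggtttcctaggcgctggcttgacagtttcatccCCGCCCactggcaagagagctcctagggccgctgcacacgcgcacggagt
Alox12b: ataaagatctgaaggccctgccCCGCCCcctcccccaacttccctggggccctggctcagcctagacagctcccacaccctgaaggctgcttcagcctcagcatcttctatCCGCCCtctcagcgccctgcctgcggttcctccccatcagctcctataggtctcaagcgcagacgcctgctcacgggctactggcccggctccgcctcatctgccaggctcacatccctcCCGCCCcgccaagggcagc
In Ptgs2 the capitals are a C/EBP match (TTGCNNAA) that starts 69 bases before the start site and a GC box (GGGCGG) that starts 170 bases before it. Ptges held GC boxes that start 53 and 42 bases before its start, Hpgd 1 on the reverse strand 50 bases before, and Alox12b 3 on the reverse strand 228, 139 and 19 bases before. Of 32851 mouse windows of the same length, 9.56% held the C/EBP letters and 32.7% the GC box. No window shown held TATAAA (12.4% of all windows), the AP-1 letters TGANTCA (6.75%), the CRE letters TGACG (17.8%) or the E-box CACGTG (6.02%), which says only that these letters are not in these stretches. RefSeq upstream sequences were at hand for 7 of the 10 genes. Aloxe3, Alox15 and Alox5ap were not among them.

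Expression is given as log2 values made by the authors with RMA, in which a difference of 1 is a 2-fold change, and values from different probesets are not compared with each other. The median of an array lay between 5.585 and 5.753. The epithelial label of the tumors was checked on keratinocyte markers: the mean of 6 basal keratinocyte genes, Krt5 and Krt14 among them, was 11.48 to 11.72 in skin, 11.87 to 12.63 in poorly differentiated, 6.11 to 11.06 in mixed and 5.82 to 8.90 in undifferentiated/spindle tumors, so that every tumor of the last class lay below every skin sample. Of the other marker lists, between grades undifferentiated/spindle tumors were lower in 3 of 8 neutrophil, 3 of 4 sebaceous gland, 1 of 8 mast cell and 1 of 7 dendritic and Langerhans cell markers. They were higher in 1 of 6 lymphocyte markers, and not called in the 4 eosinophil and 6 platelet markers. Between grades 10% of all probesets were called higher and 6.96% lower. The mean of 10 suprabasal (differentiating) keratinocyte genes was 11.42 to 11.74 in skin, 9.28 to 11.67 in poorly differentiated, 4.90 to 7.83 in mixed and 4.62 to 8.63 in undifferentiated/spindle tumors. All 5 skeletal muscle and all 3 adipocyte markers measured were lower in tumors than in skin, with a muscle mean of 13.39 to 13.90 in skin against 5.03 to 9.22 in tumors, and the part of such tissue in the differences from skin was not tested. A sign of RNA quality, the log2 level of the 3′ minus the 5′ control probeset of Actb, was 0.50 to 1.19 in skin, 0.42 to 0.82 in poorly differentiated, 0.38 to 0.66 in mixed and 0.24 to 0.38 in undifferentiated/spindle tumors, without overlap between the last class and skin or poorly differentiated tumors, and its part in the differences was not tested. In bulk samples fewer cells of a type and less RNA per cell cannot be told apart.

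Over all 15 tumors, 6 of the 9 genes differed from skin in limma at an adjusted p under 0.05, a call made for 36.2% of all probesets in this comparison. Ptgs2 and Ptges were higher (20.9% of probesets were called higher), and Hpgd, Alox5, Alox12 and Aloxe3 were lower (15.4% called lower). The median difference of the 9 genes was −1.12 on the log2 scale, against 0.06 over all probesets. Each gene is given by class next. The contrasts of the classes with skin share the same 5 skin samples.

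Ptgs2 had the largest difference of the 9 genes. In normal skin it read 5.79, 3.90, 4.92, 4.22 and 4.53, below the array's own median in 4 of the 5 samples. The 6 poorly differentiated tumors ran from 8.64 through a median of 11.03 to 11.93. The undifferentiated/spindle tumors read 9.22 and 8.54 (Trp53ΔEC) and 8.58, 8.74 and 8.61 (RbΔEC; Trp53ΔEC), and the mixed tumors 8.46, 4.34 and 7.01 (Trp53ΔEC) and 8.01 (RbΔEC; Trp53ΔEC). Every poorly differentiated and every undifferentiated/spindle tumor thus lay above all skin samples, as did 3 of 4 mixed tumors, and Trp53ΔEC tumor 5, a mixed tumor, lay within the skin range. The mean was 6.03 ± 0.63 (SE) higher than in skin in poorly differentiated tumors, a 65.3-fold difference (limma adjusted p = 6.9e-07), 4.07 ± 0.65 in undifferentiated/spindle tumors, 16.8-fold (adjusted p = 7.3e-05), and 2.28 ± 0.69 in mixed tumors, 4.87-fold (adjusted p = 0.0137). The call in mixed tumors was lost without Trp53ΔEC tumor 3 (1.78, adjusted p = 0.0578) or without RbΔEC; Trp53ΔEC tumor 4 (1.93, adjusted p = 0.0513).

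Among the tumors, Ptgs2 was highest in the poorly differentiated class. It was 1.96 ± 0.48 lower in undifferentiated/spindle tumors (3.89-fold lower, adjusted p = 0.0162), although RbΔEC; Trp53ΔEC tumor 8, poorly differentiated, read 8.64 and lay within their range. By grade 6 of 6 basal keratinocyte, 9 of 10 suprabasal keratinocyte and 3 of 8 neutrophil markers were lower as well. Of 9 macrophage markers 6 were higher, as were 3 of 5 endothelium markers, and the Actb difference, given above, also moved. The part of these in the Ptgs2 difference was not tested. In mixed tumors Ptgs2 was 3.75 ± 0.67 lower than in poorly differentiated ones (adjusted p = 0.000652), with no overlap. Mixed tumors were also all below the undifferentiated/spindle tumors, by 1.79 ± 0.69, without passing the test (adjusted p = 0.0943). The other Ptgs2 probeset gave the same order of classes, with a difference from skin of 5.02 ± 0.53 in poorly differentiated tumors (adjusted p = 7.87e-07), but its difference by grade did not pass (−1.04, adjusted p = 0.221). By grade the call on the first probeset was also lost without the 2 spindle cell carcinomas (adjusted p = 0.0617) and with the methods' t-test (adjusted p = 0.0628).

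Ptges, which makes prostaglandin E2 from the product of the cyclooxygenases, was above skin in poorly differentiated and undifferentiated/spindle tumors and not called in mixed tumors. Skin samples read 7.73, 7.64, 7.28, 7.43 and 7.73, and the poorly differentiated tumors ran from 9.53 through a median of 10.14 to 10.88, with no overlap. Undifferentiated/spindle tumors read 9.86, 9.44, 9.69, 7.77 and 8.43, all above skin but the lowest, an RbΔEC; Trp53ΔEC tumor, only just, and mixed tumors read 7.67, 8.28, 8.85 and 8.07. The difference from skin was 2.61 ± 0.32 in poorly differentiated tumors (6.09-fold, adjusted p = 5.77e-06), 1.47 ± 0.34 in undifferentiated/spindle tumors (2.78-fold, adjusted p = 0.00192) and 0.65 ± 0.36 in mixed tumors (adjusted p = 0.161). Mixed tumors were 1.96 ± 0.35 below poorly differentiated ones (adjusted p = 0.000607). The difference by grade was −1.13 ± 0.38 (adjusted p = 0.0606). The other 2 Ptges probesets gave 1.30 and 1.64 for poorly differentiated tumors against skin (adjusted p = 0.00383 and 0.000111), but over all tumors 0.51 and 0.94, and neither passed there (adjusted p = 0.376 and 0.0615). The rise of Ptges therefore held on every probeset only for the poorly differentiated class.

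Poorly differentiated tumors also differed from skin in markers of infiltrating cells. Of 8 neutrophil markers 5 were higher there, with a list mean of 5.32 to 7.53 against 4.60 to 4.76 in skin. Of 9 macrophage markers 7 were lower, where 21.3% of all probesets were called higher and 16% lower. In the undifferentiated/spindle tumors, where Ptgs2 was also above skin, the neutrophil mean was 4.51 to 5.10. There 1 of 8 neutrophil markers was higher than in skin, beside 22.9% of all probesets. The part of these cells in the Ptgs2 and Ptges differences was not tested.

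Hpgd, the enzyme that inactivates prostaglandin E2, was not called between poorly differentiated tumors and skin and fell in the other classes. Skin read 10.53, 8.94, 9.89, 9.77 and 9.41. Poorly differentiated tumors ran from 6.69 through 9.20 to 10.84, with 4 of 6 at or above 9.19 and Trp53ΔEC tumor 6 the lowest. Undifferentiated/spindle tumors read 5.07, 5.18, 6.32, 5.85 and 5.82, and mixed tumors 6.48, 4.50, 6.28 and 3.50. On this probeset every tumor of these 2 classes thus lay below every skin sample and every poorly differentiated tumor. The difference from skin was −0.68 ± 0.61 in poorly differentiated tumors (95% interval −1.96 to 0.61, adjusted p = 0.415), and Hpgd fell in undifferentiated/spindle (−4.06 ± 0.64, 16.7-fold lower, adjusted p = 5.79e-05) and mixed tumors (−4.52 ± 0.68, 22.9-fold lower, adjusted p = 4e-05). By grade the undifferentiated/spindle tumors were 3.38 ± 0.60 lower on the log2 scale, or 10.4-fold lower (adjusted p = 0.0024), and mixed tumors were 14.4-fold lower than poorly differentiated ones (adjusted p = 0.000423). The second Hpgd probeset also fell by grade, by 1.75 ± 0.36 (adjusted p = 0.00591). Its class means were 6.46 in skin, 6.49 in poorly differentiated, 4.98 in mixed and 4.74 in undifferentiated/spindle tumors, a smaller fall from skin. There the highest mixed tumor (5.125) lay just above the lowest poorly differentiated tumor (5.118). Over all tumors the fall of Hpgd (−2.83 ± 0.94, adjusted p = 0.0228) did not pass on the second probeset (−0.96, adjusted p = 0.0968), without normal skin 1 (adjusted p = 0.0627) or without the mixed tumors (adjusted p = 0.06).

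**Figure D1:**
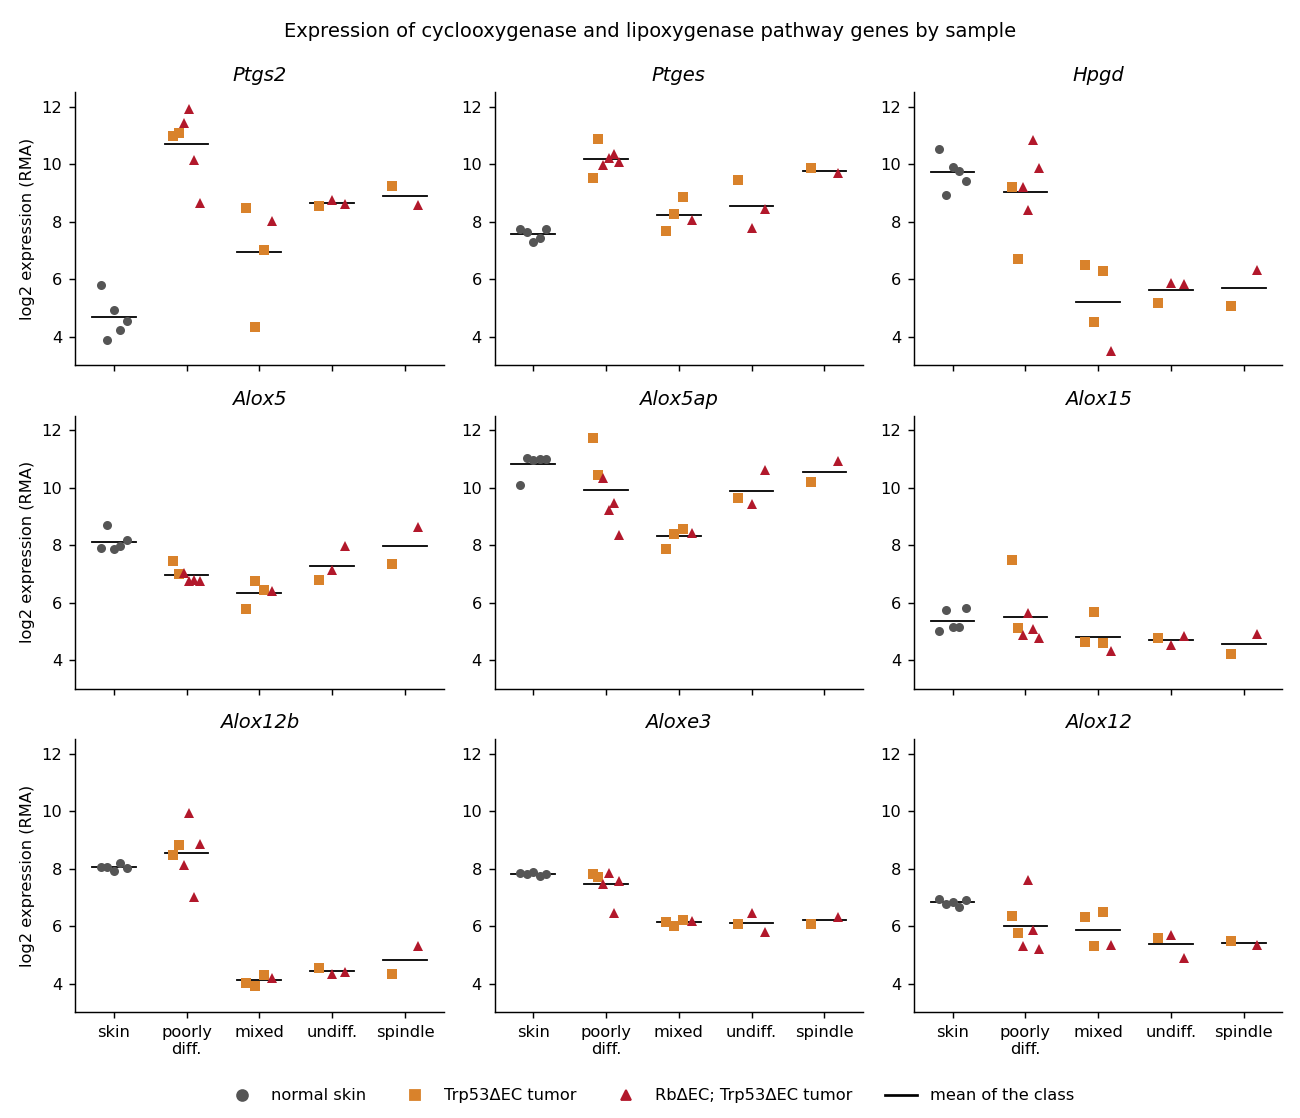
Log2 expression (RMA, vertical axis) of the 9 genes in each of the 20 arrays by histological class (horizontal axis), with 1 point per array, symbols for normal skin and the 2 tumor genotypes, and a line at the mean of each class. Ptgs2 and Ptges are highest in poorly differentiated tumors. On the probesets shown, every mixed, undifferentiated and spindle tumor lies below all skin samples and poorly differentiated tumors in Hpgd, Alox12b and Aloxe3.

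The paired epidermal lipoxygenases lie next to each other on chromosome 11, with Alox8 beside Alox12b. Like Hpgd, they set mixed and undifferentiated/spindle tumors apart from skin and from poorly differentiated tumors. The gap to poorly differentiated tumors was wide in Alox12b and narrow in Aloxe3 (6.44 against 6.47). Alox12b forms a hydroperoxide on the linoleate of epidermal ceramides, and Aloxe3 converts it further. In skin Alox12b read 8.07, 8.04, 7.92, 8.18 and 8.03, and in poorly differentiated tumors 7.01 to 9.94 with a median of 8.66. In undifferentiated/spindle tumors it read 4.33, 4.54, 5.32, 4.35 and 4.40 and in mixed tumors 4.01, 3.93, 4.28 and 4.20, below the array's own median in all 9. There was no overlap of these 9 tumors with skin or with poorly differentiated tumors, and 4 of the 6 poorly differentiated tumors were above all skin samples. Alox12b differed from skin by 0.49 ± 0.33 in poorly differentiated tumors (95% interval −0.21 to 1.19, adjusted p = 0.267), and fell by 3.94 ± 0.37 in mixed (15.4-fold lower, adjusted p = 2.14e-07) and by 3.46 ± 0.35 in undifferentiated/spindle tumors (11-fold lower, adjusted p = 3.89e-07). Without RbΔEC; Trp53ΔEC tumor 7, the lowest poorly differentiated tumor, the first of these differences was 0.80 and passed (adjusted p = 0.0214).

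By grade Alox12b was 3.95 ± 0.42 lower in undifferentiated/spindle than in poorly differentiated tumors (15.5-fold, adjusted p = 7.38e-05), and mixed tumors were 4.43 ± 0.36 lower (21.6-fold, adjusted p = 1.28e-07). The comparison of all tumors with skin gave −2.01 ± 0.96 without a call (adjusted p = 0.109). Aloxe3 read 7.85, 7.81, 7.90, 7.75 and 7.79 in skin, 6.47 to 7.84 with a median of 7.64 in poorly differentiated tumors, 6.08, 6.06, 6.33, 6.44 and 5.78 in undifferentiated/spindle tumors and 6.14, 5.99, 6.20 and 6.16 in mixed tumors. The split is the same as for Alox12b but smaller: −1.68 ± 0.20 against skin in undifferentiated/spindle tumors (3.21-fold lower, adjusted p = 2.13e-06), −1.70 ± 0.21 in mixed tumors (adjusted p = 4.69e-06), −0.34 ± 0.19 in poorly differentiated tumors (adjusted p = 0.165) and −1.34 ± 0.23 by grade (adjusted p = 0.00226). All 10 suprabasal keratinocyte markers were lower than in skin in both the mixed and the undifferentiated/spindle tumors, and 9 of 10 were lower in each than in poorly differentiated tumors. Across the 15 tumors, which share these classes, Pearson's r with the mean of the suprabasal markers was 0.91 for Alox12b, 0.87 for Aloxe3, 0.77 for Hpgd and for Ptges and 0.65 for Ptgs2. Other lists gave similar or higher values, with 0.84 for Hpgd and 0.82 for Alox12b against sebaceous gland markers, and for Ptgs2 0.68 against platelet, 0.64 against mast cell and 0.61 against eosinophil markers. The part of keratinocyte or other cell content in these differences was not tested.

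Alox12, the platelet-type lipoxygenase that is also found in epidermis, was lower in tumors by 1.05 ± 0.30 (2.07-fold, adjusted p = 0.00935). Skin read 6.94, 6.77, 6.83, 6.67 and 6.89, and 14 of 15 tumors were below all of these. The exception was RbΔEC; Trp53ΔEC tumor 6, poorly differentiated, at 7.61. The class differences from skin were −1.42 ± 0.35 in undifferentiated/spindle tumors (adjusted p = 0.00332), −0.96 ± 0.37 in mixed tumors (adjusted p = 0.0472) and −0.80 ± 0.33 in poorly differentiated tumors (adjusted p = 0.0674). The call in mixed tumors was lost in 14 of 20 fits with 1 array left out, and poorly differentiated tumors passed without RbΔEC; Trp53ΔEC tumor 6 (−1.12, adjusted p = 0.00162). No difference among the tumor classes passed, with −0.61 ± 0.38 by grade (95% interval −1.44 to 0.21). The other Alox12 probeset, at 3.58 to 4.09 in skin and below the array medians throughout, gave a smaller fall of Alox12 over all tumors, by 0.31 ± 0.10 (adjusted p = 0.0139). The mean of 6 platelet markers was 6.13 to 6.61 in skin and 5.99 to 7.93 in tumors, and the highest of the tumor values was that of RbΔEC; Trp53ΔEC tumor 6.

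Alox15, the 12/15-lipoxygenase of macrophages and eosinophils, gave no call in any comparison and read below its array's median in 3 of 5 skin samples, 5 of 6 poorly differentiated, 4 of 4 mixed and 5 of 5 undifferentiated/spindle tumors. Skin samples read 5.02, 5.74, 5.14, 5.14 and 5.81, undifferentiated/spindle tumors 4.22, 4.77, 4.90, 4.52 and 4.84, and mixed tumors 4.64, 5.66, 4.58 and 4.31. Poorly differentiated tumors ran from 4.78 through 5.09 to 7.47, and the top value came from Trp53ΔEC tumor 4, the only one of the 6 above its array's median. All undifferentiated/spindle tumors lay below all skin samples, with a difference of −0.72 ± 0.40 (95% interval −1.55 to 0.11, adjusted p = 0.165) that passed without Trp53ΔEC tumor 4 (adjusted p = 0.0245) and with the methods' t-test (adjusted p = 0.0309). Trp53ΔEC tumor 4 also had the highest mean of the 4 eosinophil markers, 4.18, itself below the array medians. That mean was 3.48 to 3.92 in skin, mixed and undifferentiated/spindle samples. In the poorly differentiated class it ran from 3.57 through a median of 3.76 to 4.18. Over the 15 tumors, which share their classes, r of Alox15 was 0.88 with eosinophil, 0.79 with neutrophil and 0.20 with macrophage markers. The part of eosinophils or other cells in the Alox15 value was not tested.

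In the 5-lipoxygenase genes mixed tumors had the lowest mean of the tumor classes, as in Ptgs2, Ptges, Hpgd, Alox12b and Aloxe3 on their brightest probesets. Of these genes only Alox5 and Alox5ap were called lower in mixed than in undifferentiated/spindle tumors. For Aloxe3 these means were 6.12 and 6.14, and the second Hpgd probeset gave the reverse order. Unlike in Ptgs2, Ptges, Hpgd, Alox12b and Aloxe3, the mean of undifferentiated/spindle tumors lay above that of poorly differentiated ones in the 5-lipoxygenase genes. This difference by grade was not called for Alox5 (0.61, limma adjusted p = 0.188) or Alox5ap (0.24, limma adjusted p = 0.823). Alox5 starts leukotriene synthesis, and read 7.88, 8.69, 7.88, 7.97 and 8.17 in skin. It ran from 6.74 through 6.88 to 7.45 in poorly differentiated tumors, and read 5.78, 6.74, 6.45 and 6.39 in mixed and 7.35, 6.77, 8.61, 7.13 and 7.96 in undifferentiated/spindle tumors. All poorly differentiated and mixed tumors were below all skin samples, while 2 of 5 undifferentiated/spindle tumors lay within the skin range. Alox5 fell by 1.16 ± 0.27 in poorly differentiated tumors (2.24-fold, adjusted p = 0.00212) and by 1.77 ± 0.30 in mixed tumors (3.42-fold, adjusted p = 0.000114), and the difference in undifferentiated/spindle tumors was −0.55 ± 0.28 (adjusted p = 0.128). The last passed without RbΔEC; Trp53ΔEC tumor 1, a spindle cell carcinoma and the highest of the tumors (−0.81, adjusted p = 0.0127). Mixed tumors were all below the undifferentiated/spindle tumors, by 1.22 ± 0.30 (adjusted p = 0.00866).

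Alox5ap, the membrane protein that presents arachidonic acid to Alox5, read 10.08, 11.01, 10.95, 10.99 and 10.98 in skin and 7.85, 8.40, 8.57 and 8.41 in mixed tumors, a fall of 2.49 ± 0.48 (5.63-fold, adjusted p = 0.000475) with no overlap. Poorly differentiated tumors spread from 8.34 through 9.89 to 11.72, and undifferentiated/spindle tumors read 10.18, 9.63, 10.91, 9.41 and 10.61. Their differences from skin were −0.89 ± 0.44 (adjusted p = 0.119) and −0.65 ± 0.46 (adjusted p = 0.279), and the first passed without Trp53ΔEC tumor 4, the highest of that class (−1.25, adjusted p = 0.0109). Mixed tumors were lower than poorly differentiated ones by 1.60 ± 0.46 (adjusted p = 0.0213), a call lost without Trp53ΔEC tumor 3 (−1.45, adjusted p = 0.0619), and lower than undifferentiated/spindle ones by 1.84 ± 0.48 (adjusted p = 0.0145). The mean of 9 macrophage markers was 10.06 to 10.87 in skin, 7.43 to 11.31 in poorly differentiated, 7.57 to 8.52 in mixed and 10.26 to 11.49 in undifferentiated/spindle tumors, with 8 of 9 markers lower in mixed tumors than in skin and than in undifferentiated/spindle tumors. Over the 15 tumors r with that mean was 0.80 for Alox5ap and 0.72 for Alox5, a description over samples that share their classes. The next lists for Alox5ap were fibroblast (0.58), mast cell (0.56) and lymphocyte (0.50) markers, and for Alox5 fibroblast markers (0.42). In mixed tumors 5 of 7 dendritic and Langerhans cell and 4 of 5 fibroblast markers were also lower than in skin. So were 3 of 5 endothelium and 3 of 8 mast cell markers. Of 6 lymphocyte markers 3 were lower and 1 higher, and 0 of 8 neutrophil markers were lower. Against undifferentiated/spindle tumors, 3 of 5 fibroblast markers were lower in mixed tumors. The part of macrophages or other cells in the Alox5 and Alox5ap differences was not tested.

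**Figure D2:**
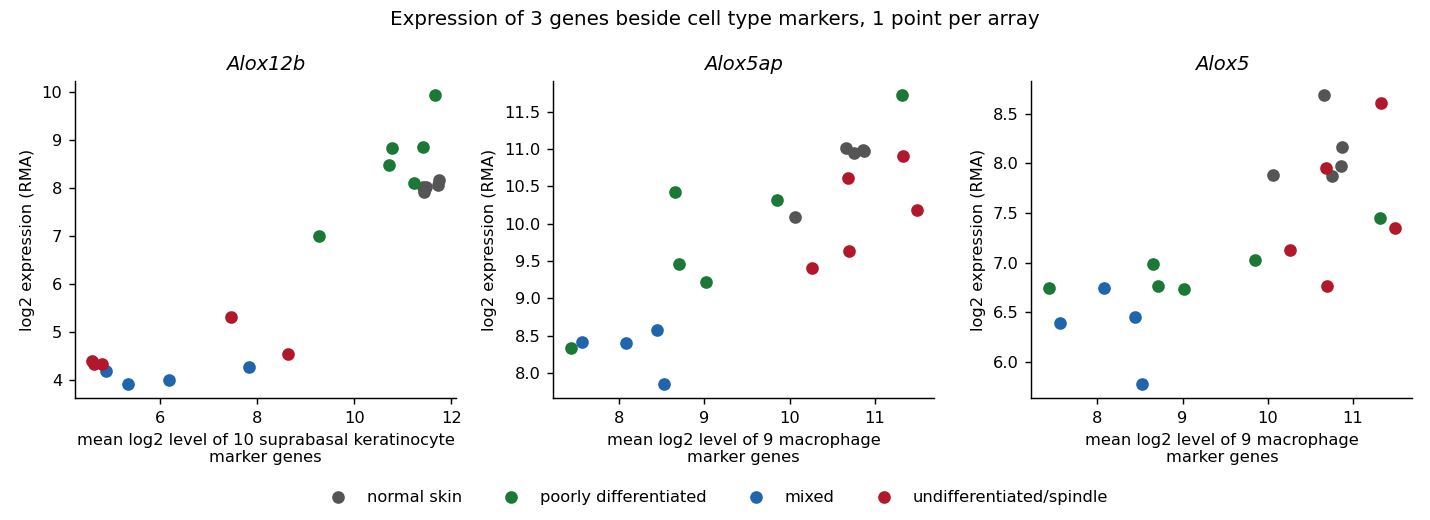
Log2 expression of Alox12b, Alox5ap and Alox5 (vertical axes) against the mean log2 level of 10 suprabasal keratinocyte or 9 macrophage marker genes (horizontal axes), 1 point per array in the color of its class. Every mixed and undifferentiated/spindle tumor lies below every skin sample and poorly differentiated tumor in Alox12b. Over the 15 tumors r with the macrophage markers is 0.80 for Alox5ap and 0.72 for Alox5. Of the 5 undifferentiated/spindle tumors, 3 lie below all skin samples in Alox5 and 2 in Alox5ap. The macrophage mean of that class is 10.26 to 11.49, against 10.06 to 10.87 in skin.

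Counted by class, 3 of the 9 genes differed from skin in poorly differentiated tumors (2 higher and 1 lower, beside 37.3% of all probesets called, 21.3% higher and 16% lower), 7 in mixed tumors (1 higher and 6 lower, beside 39.6%, 22.6% higher and 17.1% lower) and 6 in undifferentiated/spindle tumors (2 higher and 4 lower, beside 38.9%, 22.9% higher and 16% lower). By grade 4 genes were lower in undifferentiated/spindle tumors and 0 higher, where 17% of all probesets were called, 10% higher and 6.96% lower. Mixed tumors were lower than poorly differentiated ones in 6 genes and higher in 0 (18.2% of probesets called, 9.91% higher and 8.29% lower), and lower than undifferentiated/spindle ones in 2 and higher in 0 (14.8% called, 6.91% higher and 7.86% lower). The median difference of the 9 genes was −0.34 in poorly differentiated, −1.70 in mixed and −0.72 in undifferentiated/spindle tumors against skin, −1.13 by grade and −1.60 for mixed against poorly differentiated tumors, while the median over all probesets stayed between −0.01 and 0.06 in these comparisons. With the methods' t-test the mixed tumors differed from poorly differentiated ones in 3 genes (Ptges, Alox12b and Aloxe3) and from undifferentiated/spindle ones in 0.

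**Figure D3:**
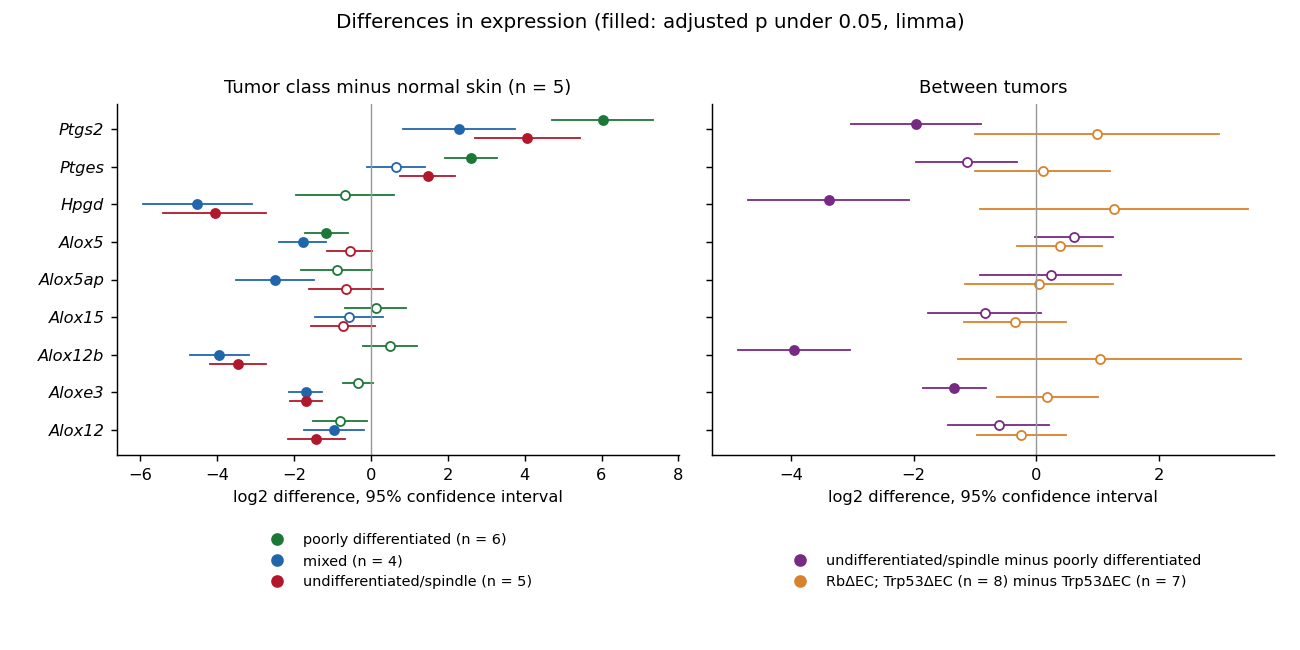
Log2 differences of the 9 genes with 95% confidence intervals (horizontal axes): each tumor class minus normal skin on the left, and undifferentiated/spindle minus poorly differentiated tumors and RbΔEC; Trp53ΔEC minus Trp53ΔEC tumors on the right, with filled points where the limma adjusted p is under 0.05. By grade Ptgs2, Hpgd, Alox12b and Aloxe3 are lower, and no gene is called between the genotypes.

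The genotypes were compared to ask whether loss of pRb in addition to p53 goes with another level of these genes. None of the 9 was called between 8 RbΔEC; Trp53ΔEC and 7 Trp53ΔEC tumors, at an adjusted p under 0.05 (0.0577% of probesets called, 0.0333% higher and 0.0244% lower) or under the 0.1 of the methods (0.0866%), and 0 of 9 had an unadjusted p under 0.05, against 5.92% of all probesets. The largest differences were 1.27 ± 1.03 for Hpgd (95% interval −0.92 to 3.46), 1.04 ± 1.08 for Alox12b (−1.27 to 3.34) and 0.99 ± 0.93 for Ptgs2 (−1.0 to 2.99), each higher in the RbΔEC; Trp53ΔEC tumors. Of the RbΔEC; Trp53ΔEC tumors 4 of 8, and of the Trp53ΔEC tumors 2 of 7, were poorly differentiated. Intervals of the other 6 genes were narrower, from −0.32 to 1.08 for Alox5 to −1.16 to 1.25 for Alox5ap. For Ptgs2, Hpgd and Alox12b the intervals thus include no difference as well as differences of several fold.

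Against skin the genotypes shared the control samples. In Trp53ΔEC tumors 6 genes passed, 2 higher and 4 lower (31% of probesets called, 17.7% higher and 13.3% lower), and in RbΔEC; Trp53ΔEC tumors 5, 2 higher and 3 lower (32.5% called, 18.9% higher and 13.6% lower). Ptgs2 was 3.85 ± 0.95 above skin in Trp53ΔEC tumors (adjusted p = 0.00466), where it ran from 4.34 through 8.54 to 11.07, and 4.84 ± 0.93 above skin in RbΔEC; Trp53ΔEC tumors (adjusted p = 0.000534), where it ran from 8.01 through 8.69 to 11.93. Hpgd passed in the first (−3.51 ± 1.04, adjusted p = 0.0147) and not in the second (−2.23 ± 1.01, adjusted p = 0.0989), and the difference between the genotypes, given above, did not pass. Whether the difference by grade itself differs between genotypes was tested as an interaction, and 0 of 9 genes and 0 of 45037 probesets passed (0% called, limma), with an unadjusted p under 0.05 for 6.63% of all probesets. Among the members 2 had an unadjusted p under 0.05, Alox5ap with an interaction of 2.14 ± 0.86 (limma adjusted p = 0.74) and Alox5 with 1.24 ± 0.51 (limma adjusted p = 0.75). Alox5ap read 11.72 and 10.42 in the poorly differentiated and 10.18 and 9.63 in the undifferentiated/spindle Trp53ΔEC tumors, while in RbΔEC; Trp53ΔEC tumors it read 10.32, 9.21, 9.46 and 8.34 in the former and 10.91, 9.41 and 10.61 in the latter.

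Of other genes of these pathways 64 were measured in 6 lists. The shares of all probesets called, given above, are 20.9% higher and 15.4% lower for tumors against skin and 10% higher and 6.96% lower by grade. In the list of the epidermal lipid barrier, the ceramides that Alox12b and Aloxe3 act on and the corneocyte lipid envelope, 12 of 14 genes were lower in undifferentiated/spindle than in poorly differentiated tumors and 0 were higher, with a median of −2.71 against 0.01 over all genes. Cers3, which makes the very long chain ceramides, fell by 6.0 ± 0.35 (adjusted p = 1.18e-06) from 8.83 to 10.01 down to 2.72 to 4.51. Nipal4 fell by 5.10, Elovl4, which elongates their fatty acids, by 5.01, and Cyp4f39, which hydroxylates them, by 4.25. Mixed tumors were lower than poorly differentiated ones in 13 of these 14 genes. Against skin, poorly differentiated tumors were higher in 5, namely Tgm1 by 1.74, Abca12 by 1.48, Pnpla1 by 1.48, Ugcg by 1.27 and Cers3 by 1.26, and lower in 1, Smpd1 (−0.80).

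The other lipoxygenases of mouse skin behaved alike by grade. Alox8, the phorbol ester-induced 8-lipoxygenase of mouse skin, was 4.91 to 5.51 in skin, 5.53 to 8.65 in poorly differentiated, 4.11 to 4.80 in mixed and 4.01 to 5.28 in undifferentiated/spindle tumors, so that it rose by 2.37 against skin in the poorly differentiated class (adjusted p = 0.000174) and fell by 3.0 by grade (adjusted p = 0.00168). Alox12e, the epidermal 12-lipoxygenase, was high in skin at 10.54 to 11.28 and fell over all tumors by 3.71 ± 0.77 (adjusted p = 0.000792) and by grade by 2.70 (adjusted p = 0.0174). It lies between Alox12 and Alox15 on chromosome 11.

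Of 18 phospholipases A2 and related genes, 2 were higher and 6 lower by grade. Pla2g4e (−3.76), Pla2g4d (−2.45) and Pla2g4f (−2.28) are cytosolic phospholipases A2 that lie in 1 gene family with Pla2g4a, and Pla2g2f (−2.64) is a secreted enzyme of the epidermis. Pla2g4e read 5.32 to 6.23 in skin and 8.99 to 10.44 in poorly differentiated tumors, a rise of 3.64 (adjusted p = 5.6e-09), and 5.28 to 5.95 in undifferentiated/spindle tumors. Against skin all tumors together were higher in 3 and lower in 3 of the 18, shares near those of all probesets, among them Pla2g7, which hydrolyses platelet-activating factor, at 2.50 above skin. Pla2g2f fell by 3.48, Pla2g16 fell by 2.65 and Pla2g5 fell by 2.29. Pla2g4a, the neighbor of Ptgs2 on chromosome 1 and the main arachidonate-releasing enzyme of many cells, differed by −0.05 ± 0.42 from skin (adjusted p = 0.937) and by 0.88 ± 0.33 by grade (adjusted p = 0.092).

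Among 9 other enzymes of prostanoids, 0 rose and 3 fell in tumors: Prxl2b, which makes prostaglandin F2α, by 2.06, Ptgds, a prostaglandin D synthase, by 1.52, and Ptgr2, a prostaglandin reductase, by 0.52. By grade Ptgis, prostacyclin synthase, was higher in undifferentiated/spindle tumors by 3.54 ± 0.71 (adjusted p = 0.00499), at 7.41 to 11.36 against 4.91 to 6.65. Tbxas1, thromboxane synthase, was higher there by 1.19, while Ptgr1 was lower by 1.28 and Prxl2b by 0.89. Of 11 receptors and transporters, 2 rose, a share near that of all probesets, and 3 fell in tumors. Ptger3, a prostaglandin E2 receptor, fell by 3.22 ± 0.72 (adjusted p = 0.00155) and Ptger2, another, rose by 1.49 (adjusted p = 0.0406). Tbxa2r fell by 0.30 and Ptgdr by 0.27. By grade the prostaglandin F receptor Ptgfr was 3.35 higher in undifferentiated/spindle tumors and Abcc4, a transporter that exports prostaglandins, 1.20 lower. By grade 6 of 9 macrophage, 3 of 5 endothelium and 1 of 5 fibroblast markers were higher too, and 0 of each were lower. The part of these cells in the Ptgis and Ptgfr differences was not tested.

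Of 10 genes of leukotriene synthesis and response, 2 rose, a share near that of all probesets, and 4 fell in tumors: Fpr2, the receptor of lipoxins and formyl peptides, by 3.18, and Mgst2, which makes leukotriene C4, by 2.36, went up, while Dpep1, which cleaves leukotriene D4, went down by 3.10 and Mgst3 by 2.01. By grade Ltc4s, leukotriene C4 synthase, was 1.98 higher and Cysltr1, the receptor of cysteinyl leukotrienes, 1.90 higher in undifferentiated/spindle tumors, where 6 of 9 macrophage markers were higher as well, and Ltb4r1, the leukotriene B4 receptor, was 2.36 lower. Ltb4r1 read 8.01 to 8.98 in poorly differentiated and 5.90 to 6.35 in undifferentiated/spindle tumors. Between genotypes 0 of the 64 genes were called.

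**Figure D4:**
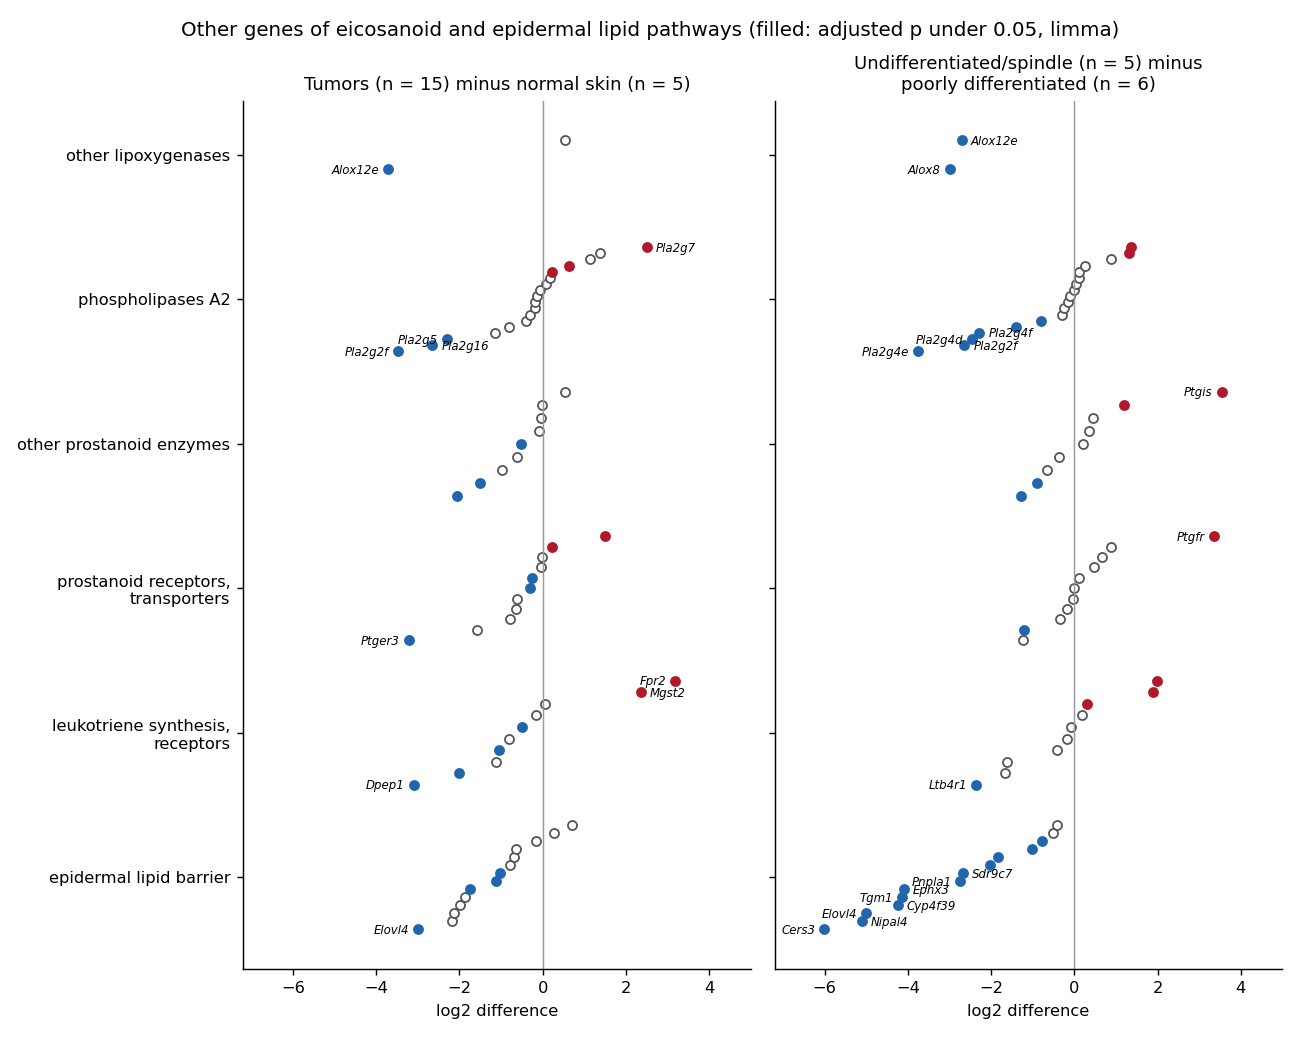
Log2 differences (horizontal axes) of 64 other genes in 6 lists (rows), for tumors minus normal skin on the left and undifferentiated/spindle minus poorly differentiated tumors on the right. Each point is a gene, ordered within its list, in red where higher and in blue where lower at a limma adjusted p under 0.05, and open otherwise, and 12 of the 14 genes of the epidermal lipid barrier are lower by grade.

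The genes whose levels were most like those of each member over the 20 arrays, by Pearson's r and as a description of samples that share their classes, differed between members. For Ptgs2 they were Mmp10 (0.92), Tango6 (0.90) and Zc3h12c (0.90), and for Ptges Eaf1 (0.92), Hbegf (0.89) and Eif1ad (0.89). For Hpgd they were the kallikreins Klk7 (0.94) and Klk5 (0.94) with Palmd (0.94), and for Alox12b Cpa4, Sdr9c7 and Bpifc (0.97 each). Sdr9c7 is a dehydrogenase that acts on the ceramide product of Alox12b and Aloxe3. Aloxe3 was most like Serpinb11 (0.95), Defb1 (0.95) and Alox12b (0.94). For Alox5 they were Rgs18 (0.91), Ccl9 (0.88) and Nfam1 (0.86), and for Alox5ap Nfam1 (0.94), Ccl9 (0.94) and Itgb2 (0.92), the β2 integrin of leukocytes. Alox12 was most like Akap6 (0.87), Pdcl2 (0.84) and Gsta2 (0.83), and Alox15 like Ostm1 (0.87), Car4 (0.84) and an immunoglobulin kappa variable gene (0.82).

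Among the members themselves, r over the 20 arrays was 0.94 between Alox12b and Aloxe3, 0.83 between Alox5 and Alox5ap, 0.81 between Hpgd and Alox12b and 0.80 between Ptgs2 and Ptges. Ptgs2 and Hpgd gave −0.09 over all arrays and 0.605 over the 15 tumors alone. In tumors alone the genes most like Alox12b were Klk9, Ltb4r1 (0.98 each) and Trex2 (0.97), those most like Aloxe3 were Pla2g4d (0.96), Alox12b (0.95) and Ces2f (0.95), and those most like Alox5ap were Nfam1 (0.94), Igsf6 (0.94) and Ccl9 (0.92).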

How the data were processed

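The data are Affymetrix MOE430 2.0 arrays of total RNA from 20 mouse samples. The deposited values are log2 expression per probeset, which the authors background-corrected, normalized and summarized by RMA (version not given in the sources used here) and which run from 2.337 to 14.718. The number of arrays limits the precision. All value columns were matched to a labelled sample. Probesets were named from the platform annotation: 34945 had 1 gene symbol, 932 several and 9160 none, and 64 array controls were left out, which left 45037 for testing. Symbols were compared with a RefSeq table (GRCm38.p6), which does not hold 204 of the gene identifiers.

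Groups came from the genotype and histology in the labels. Linear models with moderated variances (limma 3.58.1, run under R 4.3.3) gave a two-sided test for each comparison. The p-values were adjusted by Benjamini-Hochberg across the 45037 probesets, with calls at an adjusted p under 0.05. Tumors against skin, undifferentiated/spindle against poorly differentiated tumors and the genotypes were fitted on their own samples, the classes against skin in 1 fit of 4 groups, each genotype against skin in 1 fit of 3 groups, and the interaction of grade and genotype on 11 tumors. The methods' t-test was an alternative. The code was tested on simulated data. Alternatives were another test, normalization, filter, probeset rule, set of samples, covariate and threshold, and leaving out each array. The members, gene lists and marker lists were chosen with earlier results of these data known.

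Genes named outside the members are, per list and main comparison, up to 4 genes past the test with the largest difference and then those with the smallest p, and the 3 genes most correlated with each member over all arrays and over the tumors (most of the latter are left out of the text). Values of other comparisons are given for genes so named. Pla2g4a was named as the neighbor of Ptgs2, and the genes higher in poorly differentiated tumors than in skin after their values were seen. Motifs were searched in the RefSeq upstream sequences by exact letters, with N for any base. Other steps used Python 3.11.15, numpy 2.4.6, pandas 2.3.3 and matplotlib 3.10.9. The testing dataset and the human data were not used here.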

Additional observations from a re-analysis of the deposited data

Results flagged for a closer look

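Of 54 combinations of gene and group, 5 held a sample whose gap to the nearest of the others was large for the range of its group. Chance alone flags about 1 in 20 groups. Alox12 was 7.61 in RbΔEC; Trp53ΔEC tumor 6, where the next of the 8 RbΔEC; Trp53ΔEC tumors was 5.85. Alox12b was 5.32 in RbΔEC; Trp53ΔEC tumor 1, a spindle cell carcinoma, where the next of the 5 undifferentiated/spindle tumors was 4.54. Aloxe3 was 6.47 in RbΔEC; Trp53ΔEC tumor 7, below the next poorly differentiated tumor at 7.47, and Alox12b was also lowest of the class in that tumor, at 7.01. Alox15 was 7.47 in Trp53ΔEC tumor 4, where the next of the 6 poorly differentiated tumors was 5.64. Alox5ap was 10.08 in normal skin 1, where the other 4 skin samples were at 10.95 or above.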

How the results depend on the processing

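No difference of a member changed its direction where it was called. With the methods' t-test the members called fell from 6 to 3 for mixed against poorly differentiated tumors (Ptgs2, Hpgd and Alox5ap lost) and from 2 to 0 for mixed against undifferentiated/spindle tumors, where it called 985 and 684 of all probesets in place of 8197 and 6651, and against skin 9869 in place of 17856 for mixed tumors (Ptgs2 and Alox12 lost). For tumors against skin that test called 8 of 9 members (Alox12b and Alox5ap added). At the adjusted p under 3e-07 that the methods set for the t-test, it called 732 probesets and 0 members. The methods' second criterion, significance analysis of microarrays, was not applied to that count. Leaving out each array gave 3 to 5 members called for RbΔEC; Trp53ΔEC tumors against skin (5 with all arrays), where Aloxe3 and Alox5 were lost in 10 and 8 of the 20 fits, without normal skin 2, 4 or 5 or RbΔEC; Trp53ΔEC tumor 4 both at once, and 5 to 7 for all tumors, 3 to 4 for poorly differentiated, 5 to 7 for mixed, 6 to 7 for undifferentiated/spindle and 5 to 8 for Trp53ΔEC tumors against skin, 5 to 6 for mixed against poorly differentiated, 2 to 3 for mixed against undifferentiated/spindle, 4 to 5 by grade, and 0 between genotypes and for the interaction. Alox12 in Trp53ΔEC tumors was lost in 15 of 20, and Alox12b and Alox5ap were gained there without Trp53ΔEC tumor 4. The median of a gene's probesets removed the calls of Ptges for all tumors (0.63, adjusted p = 0.274) and for undifferentiated/spindle tumors (0.54, adjusted p = 0.209) against skin and of Ptgs2 by grade (−1.50, adjusted p = 0.0528). Ptges by grade passed in 6 of the other settings, the fit of 4 groups among them (−1.13, adjusted p = 0.0188). Over all tumors against skin, Alox5ap passed with arrays centred on their medians (−1.34, adjusted p = 0.04), which moved the median of all probesets from 0.06 to −0.03. By grade 7655 probesets were called, 4940 without the spindle cell carcinomas and 5172 with the mixed tumors counted as undifferentiated/spindle. Between genotypes the 26 probesets called were 8 with the methods' t-test, 15 among brighter probesets, 1 in poorly differentiated tumors alone, 6 with genes in place of probesets, 39 at an adjusted p under 0.1 and 10 without the mixed tumors, the last chosen after seeing the data, with 0 members in each.

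The replicate numbers in the titles did not pair the samples: of 7 same-numbered tumor pairs 2 correlated over 0.1 in their deviations from the genotype means, and 2 of 7 correlated best with their own number. With the number as a replicate block, 7 members and 15020 probesets were called for tumors against skin, with Alox12b at −2.88 (adjusted p = 0.00929), and 0 members and 1 probeset between genotypes.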
